A study of Mus musculus with 6 samples.

Results

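Cholesterol and fatty acid synthesis genes were followed in macrophages of mouse liver tumours. The set held 32 genes, chosen by symbol among the 55291 rows of the deposited table, with 20 in the sterol branch and 12 in the fatty acid branch. All 32 were found. Tumour-associated macrophages (TAM) of mouse hepatocellular carcinoma labelled TREM2+ (3 libraries) were compared with TAM labelled TREM2- (3 libraries). All were polyadenylated RNA of liver tumour macrophages. The labels name no strain, tumour model, age or sorting gate. They also do not say that the replicates of a group were taken from different mice. The p-values therefore describe the spread between these libraries, which may be technical.

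TREM2 is a lipid-sensing receptor of myeloid cells, and macrophages that carry it are known for taking up and storing lipid. Cells build cholesterol from acetyl-CoA through mevalonate and squalene, and build fatty acids from the same acetyl-CoA through malonyl-CoA, after which elongases and desaturases shape the chain. Both routes are driven by the SREBP transcription factors, which are held in the endoplasmic reticulum by INSIG proteins when sterols are plentiful, and the nuclear receptor LXR adds a sterol-dependent drive to Srebf1 and its fatty acid targets.

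None of the synthesis genes passed the test between TREM2+ and TREM2- libraries. Levels are in TPM, a length-scaled abundance with each library rescaled to a total of 1000000. In the sterol branch they reached from the isomerase Ebp, with means of 68.0 TPM in TREM2+ libraries and 86.8 TPM in TREM2- libraries, down to Fdps, with 0.361 TPM in TREM2+ libraries and 0.867 TPM in TREM2- libraries. In the fatty acid branch 2 of the 10 genes tested had groups that did not overlap, in opposite directions. In the sterol branch the groups of 1 of 19 genes tested, Nsdhl, did not overlap. Over all genes tested the share without overlap was 16.7%. The desaturase Fads1 averaged 7.24 ± 1.45 TPM in TREM2+ libraries and 3.12 ± 0.574 TPM in TREM2- libraries (SD, n = 3 each), while the elongase Elovl6 averaged 0.738 ± 0.212 TPM in TREM2+ libraries and 1.79 ± 0.192 TPM in TREM2- libraries. Neither reached an adjusted p of 0.05. Elovl6 reached 1 TPM, the level needed for the test, only in TREM2- libraries, so its values are a description. In these bulk libraries, fewer cells of a type and less RNA per cell cannot be told apart.

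Promoters are shown because the sterol genes shared a sequence feature there that did not enter the choice of genes. RefSeq promoter sequences (GRCm38.p6, the same build as mm10) were matched by symbol for 25 of the 32 genes, and the 250 bases before the annotated start were searched on both strands for CCAAT, the letters bound by the factor NF-Y, and for TCACNCCAC, the core of the sterol regulatory element bound by SREBP. CCAAT was found in 14 of 16 sterol promoters (87.5%), in 4 of 9 fatty acid promoters (44.4%), and in 34.5% of 27025 promoters of all genes, counting the first promoter listed for each gene. TCACNCCAC was found in 1 of 16 sterol promoters, that of Hmgcs1, in 0 of 9 fatty acid promoters, and in 1.04% of all promoters. In Hmgcs1 the matches of the 2 motifs do not overlap, and a match is a description of the sequence, not a bound site. Only these letters were searched, so a promoter without a match is not shown to lack the element. Capitals mark each match on either strand (CCAAT, or ATTGG on the strand shown, and TCACCCCAC in Hmgcs1).

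The promoters of Hmgcs1 (chr13:119690101-119690350, plus strand), Mvk (chr5:114444019-114444268, plus strand), Nsdhl (chrX:72918271-72918520, plus strand) and Acly (chr11:100528001-100528250, minus strand) are given 5′ to 3′, the first 3 for their matches and Acly as a highly expressed fatty acid gene with none.
Hmgcs1: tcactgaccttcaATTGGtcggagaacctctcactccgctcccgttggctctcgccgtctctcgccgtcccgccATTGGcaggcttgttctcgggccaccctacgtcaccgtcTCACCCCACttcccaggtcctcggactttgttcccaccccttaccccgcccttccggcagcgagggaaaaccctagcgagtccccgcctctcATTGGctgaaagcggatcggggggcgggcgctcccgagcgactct
Mvk: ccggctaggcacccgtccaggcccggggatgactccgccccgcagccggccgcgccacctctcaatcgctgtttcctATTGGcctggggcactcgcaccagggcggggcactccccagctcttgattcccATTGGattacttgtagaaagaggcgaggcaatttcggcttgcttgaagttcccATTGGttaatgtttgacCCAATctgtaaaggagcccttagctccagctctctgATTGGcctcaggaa
Nsdhl: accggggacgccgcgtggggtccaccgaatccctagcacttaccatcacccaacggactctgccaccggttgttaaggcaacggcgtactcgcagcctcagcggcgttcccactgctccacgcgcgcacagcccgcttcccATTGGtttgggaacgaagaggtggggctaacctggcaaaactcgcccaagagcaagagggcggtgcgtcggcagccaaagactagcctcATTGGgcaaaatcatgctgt
Acly: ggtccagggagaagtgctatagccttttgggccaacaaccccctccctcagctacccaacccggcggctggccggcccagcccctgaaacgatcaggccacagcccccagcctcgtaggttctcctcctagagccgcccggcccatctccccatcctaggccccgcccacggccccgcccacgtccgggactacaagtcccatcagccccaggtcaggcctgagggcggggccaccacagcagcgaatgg

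Hmgcs1 held CCAAT at 237, 176 and 45 bases before the start and the sterol element core at 137 bases. Mvk held 5 matches of CCAAT and Nsdhl 2. Nsdhl had the lowest fold change of the sterol branch and Mvk one of its 3 highest, and both held CCAAT.

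Recovered reads per library ranged from 12652629 to 17329972 in TREM2+ libraries and from 11614117 to 20157493 in TREM2- libraries, and the genes of the set had 118 (Fdps) to 16971 (Acly) reads over the 6 libraries. The receptor's own transcript checks the labels: Trem2 stood at 39.6, 40.8 and 30.7 TPM in TREM2+ libraries, against 16.9, 20.5 and 21.2 TPM in TREM2- libraries. The groups did not overlap. A two-sided exact permutation test returned p = 0.1, the smallest that 3 against 3 libraries allow, and limma returned an adjusted p of 0.0855. All 7 macrophage markers passed the filter and none was called. Their summed level, most of it Lyz2, lay between 32465 and 42377 TPM in TREM2+ libraries and between 58048 and 75441 TPM in TREM2- libraries. Lyz2 alone had a log2 fold change below 0 (-1.01, groups not overlapping), while the other 6 were above 0, and Cd68 (0.47), Fcgr1 (1.04) and Mertk (1.81) had higher TREM2+ libraries with no overlap. Markers of other cells were present too, and some moved with the groups: 6 of 7 endothelial markers were called higher (175.6 to 260.0 TPM summed in TREM2+ libraries, 17.1 to 37.0 TPM in TREM2- libraries), of which Cdh5 passed the filter only through the TREM2+ libraries, and 3 of 5 basophil and mast cell markers lower (14.1 to 24.2 TPM in TREM2+ libraries, 109.3 to 182 TPM in TREM2- libraries). 1 of 6 dendritic cell markers was called lower (26.3 to 40.5 TPM in TREM2+ libraries, 63.8 to 98.0 TPM in TREM2- libraries). Among all genes tested, 2.05% were called higher and 0.37% lower in TREM2+ libraries. No marker of neutrophils (15565 to 19127 TPM in TREM2+ libraries, 17050 to 21394 TPM in TREM2- libraries), T and NK cells (824 to 986 TPM in TREM2+ libraries, 1338 to 3178 TPM in TREM2- libraries), B and plasma cells (204 to 263 TPM in TREM2+ libraries, 135 to 703 TPM in TREM2- libraries) or cycling cells (102 to 124 TPM in TREM2+ libraries, 102 to 142 TPM in TREM2- libraries) was called. Fibroblast and stellate cell markers summed to 2.56 to 5.50 TPM in TREM2+ libraries and 2.02 to 11.7 TPM in TREM2- libraries, and adipocyte markers to 0.177 to 0.784 TPM in TREM2+ libraries and 0.326 to 1.40 TPM in TREM2- libraries, with 1 of 5 and 0 of 4 tested. No marker of any list was at 0 in all 6 libraries.

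**Figure D1:**
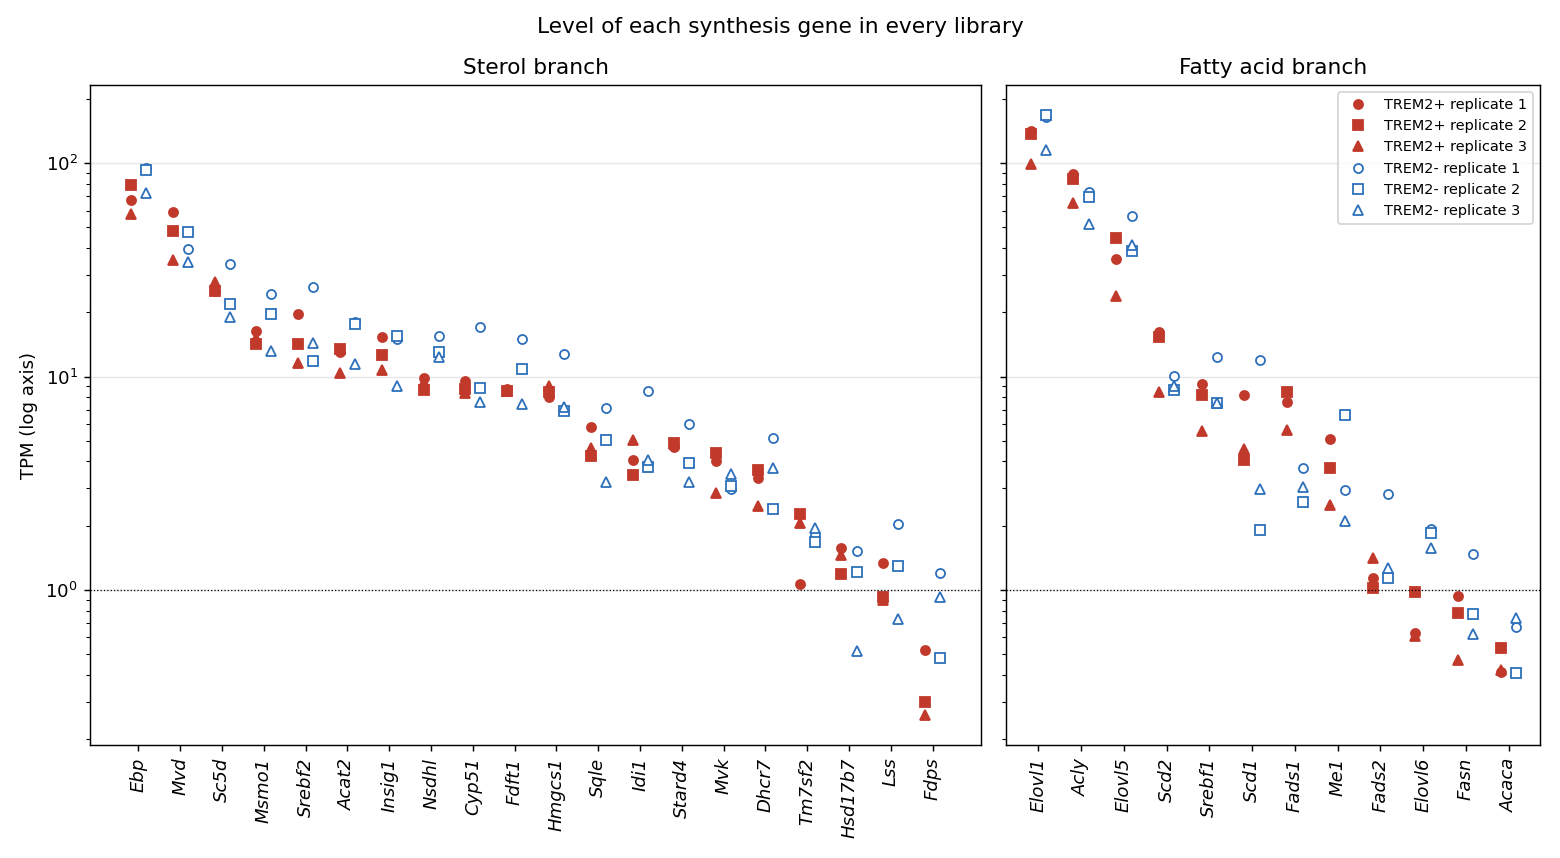
Level of each gene in TPM on a log axis, with sterol genes in the left panel and fatty acid genes in the right panel, ordered by mean level; filled symbols are TREM2+ libraries and open symbols TREM2- libraries, with circle, square and triangle for replicates 1, 2 and 3, and the dotted line at 1 TPM. TREM2- replicate 1 is the highest library for 21 of the 32 genes, and the groups overlap for all genes tested except Fads1, Elovl6 and Nsdhl.

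The question put to the data was whether TREM2+ and TREM2- macrophages differ in the synthesis of sterols and fatty acids at the transcript level. limma was fitted to log2(TPM + 1) of the 13788 genes that reached 1 TPM in 3 or more libraries, with p-values adjusted over all of them. Fold changes on this scale understate those of low genes. Of the 20 sterol genes 19 were tested, and 0 were called higher and 0 lower. Of the 12 fatty acid genes 10 were tested, and again 0 were called higher and 0 lower. Over all genes tested 2.42% were called, 2.05% higher and 0.37% lower in TREM2+ libraries, so a set of this size would hold few calls at the background rate. At an unadjusted p under 0.05, 1 gene of the set was higher (Fads1) and 2 were lower (Elovl6 and Nsdhl), against 12.8% of all genes tested, 7.45% higher and 5.34% lower. The same 3 genes were those whose groups did not overlap, against 16.7% of all genes tested, 9.07% with higher and 7.62% with lower TREM2+ libraries.

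Intervals stayed within 2-fold more often for sterol than for fatty acid genes. The median SE was alike, 0.268 for sterol and 0.276 for fatty acid genes tested, but the largest was 0.325 and 0.518 (Scd1). For all 19 sterol genes tested the 95% interval of the log2 fold change lay within 2-fold in either direction, as it did for 5 of the 10 fatty acid genes and for 60.9% of all genes tested. Scd2 (upper bound 1.06) and Elovl5 (lower bound -1.04) crossed 2-fold narrowly. The intervals are on log2(TPM + 1), which understates fold changes of low genes. They leave out the untested Fdps, with means of 0.361 TPM in TREM2+ libraries and 0.867 TPM in TREM2- libraries. The median log2 fold change was -0.14 for the sterol genes and -0.09 for the fatty acid genes, beside -0.09 for all genes tested. Fold changes were below 0 for 14 of 19 sterol genes and for 5 of 10 fatty acid genes, beside 8406 of all 13788 genes tested. Elovl6 passed the filter only through the TREM2- libraries, so these counts over tested genes are a description. A p that misses the threshold does not show that the groups are alike.

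**Figure D2:**
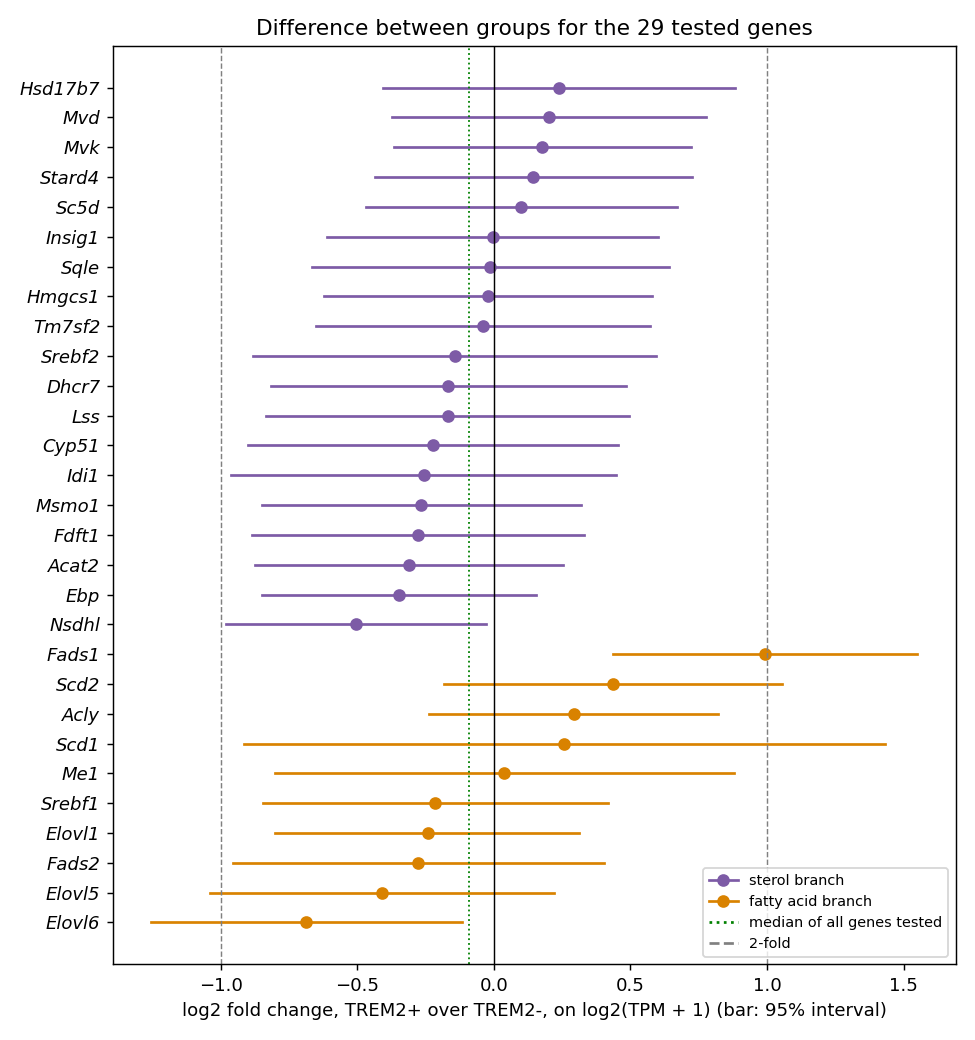
Log2 fold change of TREM2+ over TREM2- libraries on log2(TPM + 1) for the 29 genes tested, with bars for the 95% interval of the limma fit over 3 against 3 libraries; dashed lines mark 2-fold and the dotted line the median of all genes tested. Every sterol interval lies within the dashed lines, while Fads1 reaches 0.99 and Elovl6 -0.69.

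The steps that lead from acetyl-CoA to the isoprenoid building blocks came first in the sterol branch. Acat2, the cytosolic thiolase that makes acetoacetyl-CoA, had 13.1, 13.4 and 10.4 TPM in TREM2+ libraries, against 18.0, 17.7 and 11.4 TPM in TREM2- libraries. Its log2 fold change was -0.31 ± 0.25 (SE of the limma fit, n = 3 each) with an adjusted p of 0.721, and 39.1% of its stretches of 50 bases also occur in other genes, among them Acat3, so its level is uncertain. Hmgcs1, the synthase that commits acetoacetyl-CoA to HMG-CoA, had 8.02, 8.43 and 9.05 TPM in TREM2+ libraries, against 12.7, 6.92 and 7.24 TPM in TREM2- libraries. The TREM2+ libraries lay between the lowest and the highest TREM2- library. A gene on the opposite strand overlaps 12.1% of the exon bases of Hmgcs1, which leaves its level uncertain too.

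Mvk, the kinase that phosphorylates mevalonate, stood at 4.03, 4.41 and 2.85 TPM in TREM2+ libraries, against 2.98, 3.06 and 3.49 TPM in TREM2- libraries. Mvd, which decarboxylates mevalonate diphosphate to isopentenyl diphosphate, stood at 58.9, 48.0 and 35.0 TPM in TREM2+ libraries, against 39.5, 47.6 and 34.3 TPM in TREM2- libraries. These steps had log2 fold changes of 0.18 ± 0.24 for Mvk and 0.20 ± 0.25 for Mvd (adjusted p = 0.855 and adjusted p = 0.839 in limma), within the spread of the libraries. Mvd was the more abundant of the pair in every library.

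Idi1, the isomerase that makes the activated isoprene unit, had 4.07, 3.44 and 5.02 TPM in TREM2+ libraries, against 8.52, 3.79 and 4.08 TPM in TREM2- libraries. TREM2- replicate 1 was the highest library: without it the log2 fold change was 0.06, against -0.26 with all libraries. Fdps, which joins isoprene units to farnesyl diphosphate, had 0.524, 0.300 and 0.259 TPM in TREM2+ libraries, against 1.20, 0.478 and 0.923 TPM in TREM2- libraries. It missed the filter, with 118 reads in all, and 26.2% of its stretches of 50 bases occur in other genes. Of those of Idi1 25.3% do, and 9.22% of its exon bases are overlapped by a gene on the opposite strand, so the levels of both genes are uncertain.

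The squalene steps were not called. Fdft1, the squalene synthase, had 8.73, 8.55 and 8.55 TPM in TREM2+ libraries, against 14.9, 10.8 and 7.40 TPM in TREM2- libraries. Its exons overlap those of the cathepsin gene Ctsb on the opposite strand over 18.3% of their bases, and reads of the pair cannot be told apart without a stated strand setting. Sqle, the squalene epoxidase and a rate-controlling step, had 5.80, 4.22 and 4.63 TPM in TREM2+ libraries, against 7.10, 5.05 and 3.19 TPM in TREM2- libraries, a log2 fold change of -0.01 ± 0.29. Lss, which closes the ring to lanosterol, had 1.33, 0.923 and 0.895 TPM in TREM2+ libraries, against 2.04, 1.29 and 0.735 TPM in TREM2- libraries.

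Beyond lanosterol, the methyl groups are removed and the ring double bonds rearranged. Nsdhl, a dehydrogenase of the demethylation complex (ENSMUSG00000031349.4, mm10, chromosome X, 72918557 to 72958514), was the only sterol gene with groups that did not overlap. It had 9.82, 8.65 and 9.39 TPM in TREM2+ libraries, against 15.6, 13.0 and 12.4 TPM in TREM2- libraries. All 3 TREM2+ libraries lay below all 3 TREM2- libraries, with a log2 fold change of -0.51 ± 0.21 and an adjusted p of 0.351 in limma. The adjusted p lay between 0.0789 and 0.832 in the alternative fits, and none called the gene.

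Ebp, the sterol isomerase and the highest gene of the branch, had 67.5, 78.8 and 57.9 TPM in TREM2+ libraries, against 95, 92.6 and 72.7 TPM in TREM2- libraries. Only TREM2- replicate 3 fell within the range of the TREM2+ libraries, and the log2 fold change was -0.35 ± 0.22 with an adjusted p of 0.623 in limma. Msmo1, the sterol methyl oxidase that works beside Nsdhl, had 16.3, 14.2 and 15.2 TPM in TREM2+ libraries, against 24.3, 19.6 and 13.1 TPM in TREM2- libraries. Cyp51, the lanosterol demethylase, had 9.58, 8.71 and 8.36 TPM in TREM2+ libraries, against 17.0, 8.81 and 7.64 TPM in TREM2- libraries. In both genes the lowest and the highest library were TREM2- replicates 3 and 1, so the spread within the TREM2- group held all TREM2+ libraries.

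Hsd17b7, the ketone reductase of the same complex, had 1.58, 1.18 and 1.47 TPM in TREM2+ libraries, against 1.52, 1.21 and 0.518 TPM in TREM2- libraries. It had the highest log2 fold change of the branch, 0.24 ± 0.28 (adjusted p = 0.829 in limma), on 285 reads in all. Tm7sf2, a sterol reductase, averaged 1.79 ± 0.642 TPM in TREM2+ libraries and 1.82 ± 0.134 TPM in TREM2- libraries, and shares 12.1% of its exon bases with Vps51. Sc5d, the desaturase of the late pathway, had 25.2, 25.1 and 27.7 TPM in TREM2+ libraries, against 33.7, 21.9 and 19.1 TPM in TREM2- libraries. Dhcr7, the final reductase, had 3.35, 3.64 and 2.46 TPM in TREM2+ libraries, against 5.17, 2.40 and 3.71 TPM in TREM2- libraries. The groups of these late genes overlapped.

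Srebf2, Insig1 and Stard4, the sterol genes that encode no synthesis enzyme, were not called either. Srebf2, the transcription factor that switches on the whole pathway, had 19.6, 14.3 and 11.6 TPM in TREM2+ libraries, against 26.2, 11.8 and 14.3 TPM in TREM2- libraries (log2 fold change -0.14 ± 0.33, adjusted p = 0.92 in limma). Insig1, the sterol-sensing anchor that is itself an SREBP target, had 15.3, 12.6 and 10.7 TPM in TREM2+ libraries, against 15.0, 15.5 and 8.99 TPM in TREM2- libraries. Its log2 fold change of -0.01 ± 0.27 was the smallest in size of the set. Stard4, a soluble carrier that moves cholesterol between membranes, had 4.69, 4.90 and 4.82 TPM in TREM2+ libraries, against 5.99, 3.94 and 3.20 TPM in TREM2- libraries.

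In the fatty acid branch, the genes that supply substrate were expressed at very different levels. Acly, which makes cytosolic acetyl-CoA from citrate, had 89.0, 84.5 and 65.3 TPM in TREM2+ libraries, against 73.4, 69.7 and 51.8 TPM in TREM2- libraries (log2 fold change 0.29 ± 0.23, adjusted p = 0.721 in limma). Me1, the malic enzyme that supplies NADPH, had 5.09, 3.72 and 2.51 TPM in TREM2+ libraries, against 2.94, 6.62 and 2.10 TPM in TREM2- libraries, and 28.3% of its stretches of 50 bases occur in other genes. The enzymes that build the chain itself were near the limit of what was tested. Acaca, the acetyl-CoA carboxylase, had 0.410, 0.534 and 0.420 TPM in TREM2+ libraries, against 0.670, 0.408 and 0.737 TPM in TREM2- libraries, with 30.4% of its stretches of 50 bases in other genes. Fasn, the fatty acid synthase, had 0.936, 0.782 and 0.469 TPM in TREM2+ libraries, against 1.48, 0.772 and 0.625 TPM in TREM2- libraries. Neither passed the filter on low values. Without a filter, the log2 fold changes were -0.14 for Acaca and -0.16 for Fasn, with adjusted p-values of 0.866 and 0.874 in limma.

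Srebf1, which encodes the SREBP form that drives lipogenesis, had 9.23, 8.24 and 5.58 TPM in TREM2+ libraries, against 12.3, 7.52 and 7.56 TPM in TREM2- libraries (log2 fold change -0.21 ± 0.28, adjusted p = 0.848 in limma). The ratio of Srebf1 to Srebf2 was 0.47, 0.577 and 0.482 in TREM2+ libraries, against 0.469, 0.637 and 0.529 in TREM2- libraries, and the groups overlapped. The nuclear receptor gene Nr1h3, which encodes LXR alpha and is no gene of the set, was called higher at 91.1, 73.2 and 83.8 TPM in TREM2+ libraries, against 34.7, 13.4 and 20.2 TPM in TREM2- libraries. The direction of its target Srebf1 was not settled: its 95% interval ran from -0.85 to 0.42, and its log2 fold change was 0.12 with library weights.

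Scd1 and Scd2 encode stearoyl-CoA desaturases, which make oleate and palmitoleate. Scd1 had 8.17, 4.07 and 4.55 TPM in TREM2+ libraries, against 11.97, 1.92 and 2.99 TPM in TREM2- libraries. It had the widest error of the set, with a log2 fold change of 0.26 ± 0.52, and its lowest and highest library were both TREM2-. The summed level of 10 hepatocyte markers moved with it, at 379, 130.1 and 148 TPM in TREM2+ libraries, against 535, 84.6 and 87.8 TPM in TREM2- libraries, and the part of hepatocyte RNA in the Scd1 values was not tested. Scd2 had 16.2, 15.3 and 8.49 TPM in TREM2+ libraries, against 10.1, 8.64 and 9.05 TPM in TREM2- libraries (log2 fold change 0.44 ± 0.27, adjusted p = 0.611 in limma). In TREM2+ libraries the ratio of Scd2 to Scd1 was 1.99, 3.75 and 1.87, against 0.844, 4.50 and 3.03 in TREM2- libraries. Scd2 was the more abundant of the pair in every library except TREM2- replicate 1.

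The elongases divided by level and by direction of the estimate. Elovl1, which extends saturated chains to very long fatty acids, was the highest gene of the set at 141, 137 and 99.5 TPM in TREM2+ libraries, against 164, 168 and 116 TPM in TREM2- libraries. It made up 47.7% of the summed level of the fatty acid branch, followed by Acly with 25.1% and Elovl5 with 13.9%. Elovl5, which extends polyunsaturated chains, had 35.7, 44.6 and 23.8 TPM in TREM2+ libraries, against 56.4, 38.9 and 41.5 TPM in TREM2- libraries (log2 fold change -0.41 ± 0.28, adjusted p = 0.659 in limma). Both genes had overlapping groups.

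Elovl6, which extends palmitate to stearate (ENSMUSG00000041220.10, mm10, chromosome 3, 129532355 to 129638495), had 0.625, 0.982 and 0.606 TPM in TREM2+ libraries, against 1.94, 1.86 and 1.57 TPM in TREM2- libraries. All 3 TREM2+ libraries were below 1 TPM and all 3 TREM2- libraries above it. The counts behind these values were 31, 45 and 25 reads in TREM2+ libraries and 111, 89 and 65 reads in TREM2- libraries. The log2 fold change was -0.69 ± 0.25 with an adjusted p of 0.27 in limma. With limma's voom on recovered reads the value was -1.36 with an adjusted p of 0.0337, and with library weights -0.72 with an adjusted p of 0.0432. The other alternative fits that held the gene gave no call. Elovl6 passed the filter only through the TREM2- libraries, where it was higher. Its p-values and calls are therefore a description, not support for a difference.

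Fads1, the desaturase that places the last double bond of arachidonate (ENSMUSG00000010663.5, mm10, chromosome 19, 10182888 to 10196877), had 7.63, 8.45 and 5.63 TPM in TREM2+ libraries, against 3.73, 2.59 and 3.04 TPM in TREM2- libraries. The lowest TREM2+ library lay above the highest TREM2- library, and the mean was 2.32-fold higher. The log2 fold change of 0.99 ± 0.25 (95% interval 0.44 to 1.55) had an adjusted p of 0.0863 in limma, and 4.13% of all genes tested had a larger one. The gene passed in 6 of 20 alternatives: median-of-ratios scaling (adjusted p = 0.0179), quantile normalization (adjusted p = 0.0158), scaling without the repeat family and mitochondrial genes (adjusted p = 0.0497), library weights (adjusted p = 0.0035), voom on recovered reads (adjusted p = 0.0228) and a threshold of 0.10. Over all alternatives the adjusted p ran from 0.0035 to 0.412. None of its stretches of 50 bases occurs in another gene, and no exon of another gene overlaps its exons. The endothelial markers given above were also higher in TREM2+ libraries, and their part in the Fads1 values was not tested.

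Fads2, its partner and the first desaturase of the polyunsaturated route, lies beside it on chromosome 19 (10062765 to 10101746). It had 1.14, 1.02 and 1.42 TPM in TREM2+ libraries, against 2.83, 1.14 and 1.27 TPM in TREM2- libraries (log2 fold change -0.28 ± 0.30, adjusted p = 0.808 in limma). The ratio of Fads1 to Fads2 was 6.68, 8.27 and 3.97 in TREM2+ libraries, against 1.32, 2.27 and 2.38 in TREM2- libraries. Fads1 was the more abundant in every library. The ratio's groups did not overlap, but neither did those of Fads1 alone. Fads1 had the smallest p of the set. The fold change of Fads2, its neighbour in the genome and in the pathway, had the opposite sign, but its size rested mostly on TREM2- replicate 1. Without that library the log2 fold change of Fads2 was -0.012, so its direction was not settled.

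**Figure D3:**
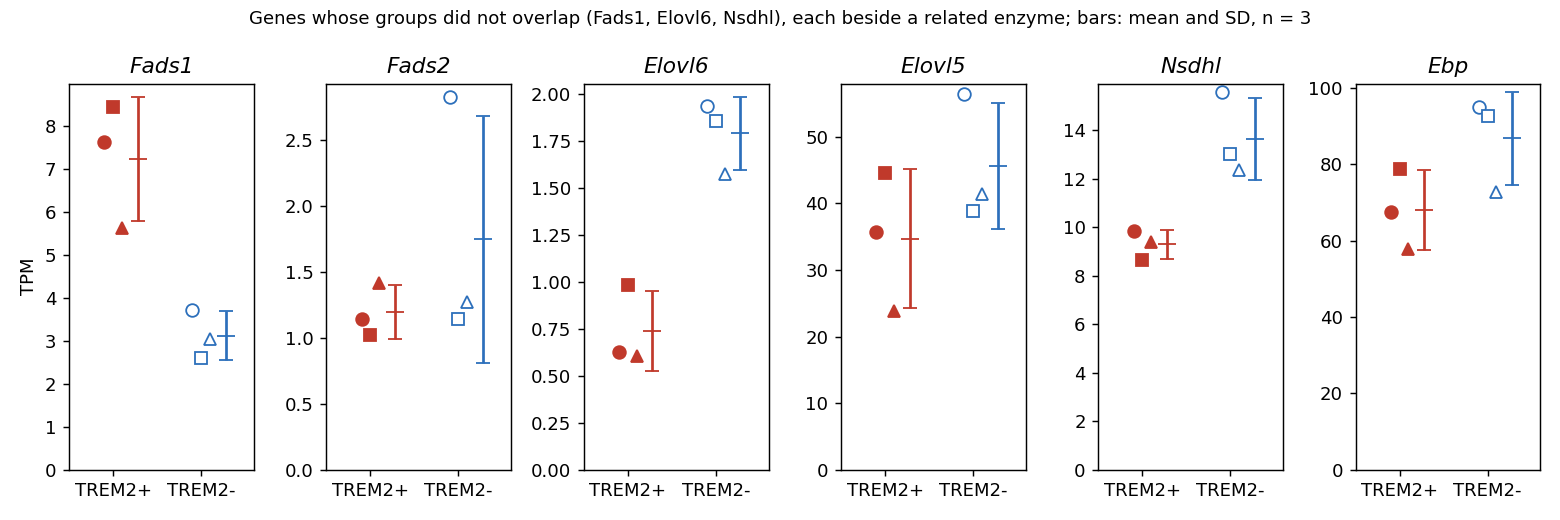
TPM of the 3 genes whose groups did not overlap (Fads1, Elovl6 and Nsdhl), each beside a related enzyme (Fads2, Elovl5 and Ebp); symbols are libraries (circle, square and triangle for replicates 1, 2 and 3) and bars the mean and SD, n = 3, on axes from 0. Fads1 lies at 5.63 to 8.45 TPM in TREM2+ libraries and at 2.59 to 3.73 TPM in TREM2- libraries, with the opposite order in Elovl6 and Nsdhl.

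Libraries of one group differed among themselves. TREM2- replicate 1 was the highest library for 15 of 20 sterol genes and 6 of 12 fatty acid genes, and it was the highest for 52.0% of all genes tested. The summed sterol level was 279, 266 and 228 TPM in TREM2+ libraries, against 348, 289 and 230.3 TPM in TREM2- libraries, with means of 258 ± 26.2 TPM and 289 ± 59.0 TPM (SD, n = 3 each). The summed fatty acid level was 316, 309 and 218 TPM in TREM2+ libraries, against 342, 309 and 238 TPM in TREM2- libraries. In both branches and both groups replicate 3 was the lowest.

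Transcripts of a repeat family around Gm10800 took 0.704%, 5.05% and 17.5% of the TPM in TREM2+ libraries, against 0.427%, 12.9% and 24.6% in TREM2- libraries, and mitochondrially encoded transcripts took 10.02%, 3.78% and 6.73% in TREM2+ libraries, against 12.3%, 2.42% and 2.96% in TREM2- libraries. With both left out before rescaling, the sterol sums were 312, 292 and 301 TPM in TREM2+ libraries, against 399, 342 and 318 TPM in TREM2- libraries, and the groups no longer overlapped. With median-of-ratios scaling they were 276, 251 and 261 TPM in TREM2+ libraries, against 278, 292 and 255 TPM in TREM2- libraries, and the groups overlapped. The mean sterol sum was lower in TREM2+ libraries under all 3 scalings, and whether the groups overlapped depended on the scaling. The median log2 fold change of all genes tested was also negative under these scalings. It was -0.09 when rescaled to 1000000, -0.15 without the repeat family and mitochondrial genes, and -0.017 with median-of-ratios scaling. The part of this general shift in the sterol sums was not tested. Ebp made up 28.3% of the sterol sum. Mvd (16.1%) and Sc5d (9.3%) followed, and both had higher means in TREM2+ libraries. The mean fatty acid sum was 280.9 TPM in TREM2+ libraries and 296.1 TPM in TREM2- libraries when rescaled to 1000000. With median-of-ratios scaling the order changed, to 284.5 and 282.6 TPM. With median-of-ratios scaling TREM2- replicate 1 was the highest library for 6 sterol genes and for 24.0% of all genes tested.

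**Figure D4:**
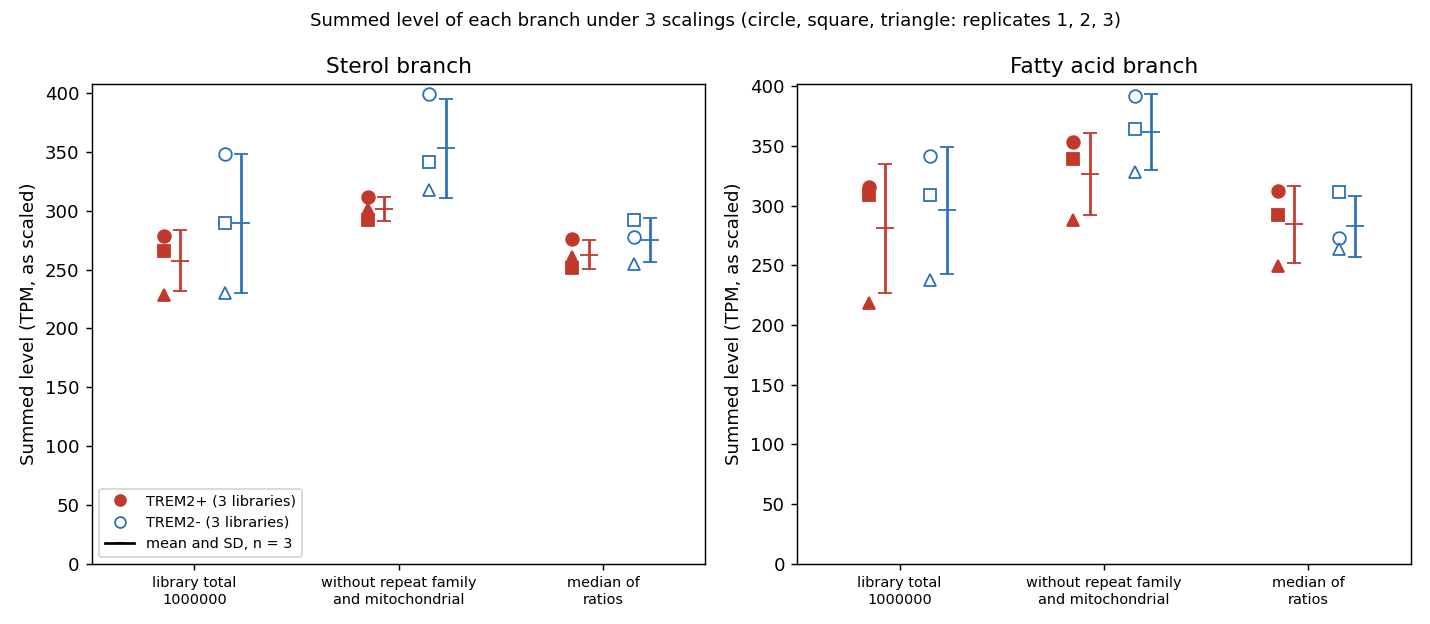
Summed level of the sterol branch (left) and the fatty acid branch (right) in each library under 3 scalings, with circle, square and triangle for replicates 1, 2 and 3 and bars for the mean and SD, n = 3. The spread within the groups narrows from a library total of 1000000 to median-of-ratios scaling, where the sterol sums lie between 251 and 292 TPM.

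The non-members whose log2 levels followed the mean standardised sterol level most closely over the 6 libraries were Cdc37, Esco1, Ppp1cb, Fbxl14 and Gtf2a1, with Pearson r from 0.995 to 0.997 and Spearman rho from 0.829 to 1. Without TREM2- replicate 1, r was 0.98 to 0.987. The libraries share their scaling and composition, and these values are a description only.

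Other genes of the sterol pathway, among them sterol sensing, transport and oxysterol synthesis, gave 0 called higher and 0 lower of 17 tested among 19, with a median log2 fold change of -0.19. Ch25h, Lbr and Cyp27a1 were among those with the smallest p. Ch25h, which makes an oxysterol that restrains SREBP processing, had 10.9, 3.54 and 10.7 TPM in TREM2+ libraries, against 1.86, 2.80 and 1.12 TPM in TREM2- libraries. Its groups did not overlap and its log2 fold change was 1.59 ± 0.41 with an adjusted p of 0.0997 in limma. Lbr, a sterol reductase of the nuclear envelope, had 43.4, 54.6 and 38.7 TPM in TREM2+ libraries, against 85.9, 68.6 and 58.6 TPM in TREM2- libraries (log2 fold change -0.63 ± 0.24, adjusted p = 0.288 in limma). Cyp27a1, which oxidises the cholesterol side chain, averaged 32.5 ± 16.2 TPM in TREM2+ libraries and 60.6 ± 30.2 TPM in TREM2- libraries, and its groups overlapped.

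Other fatty acid synthesis genes gave 0 called higher and 0 lower of 18 tested among 27, with a median log2 fold change of -0.10. The smallest p belonged to Mid1ip1, an activator of acetyl-CoA carboxylase, with 22.3, 22.5 and 18.0 TPM in TREM2+ libraries, against 44.1, 32.1 and 29 TPM in TREM2- libraries (log2 fold change -0.70 ± 0.23, adjusted p = 0.22 in limma). Tecr, the reductase that ends each elongation cycle, had 94.2, 112 and 81.0 TPM in TREM2+ libraries, against 178, 140 and 119 TPM in TREM2- libraries (log2 fold change -0.59 ± 0.24, adjusted p = 0.324 in limma). The dehydratases Hacd4 and Hacd3, which work beside Tecr, had log2 fold changes of -0.68 ± 0.31 and -0.42 ± 0.24 and overlapping groups.

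In the list of LXR and its targets 4 of 11 tested genes, among 12, were called higher and 0 lower, with a median log2 fold change of 0.61. Over all genes tested 2.05% were called higher and 0.37% lower, with a median of -0.09. The 4 called genes of the list were Nr1h3, the cholesterol exporter Abca1, and the apolipoprotein genes Apoc1 and Apoe. Apoc1 had 324, 204 and 195 TPM in TREM2+ libraries, against 99.5, 85.8 and 94.2 TPM in TREM2- libraries (log2 fold change 1.32 ± 0.25, adjusted p = 0.0287 in limma). Of the 11, 8 had fold changes above 0 and 3 below, beside 39.0% of all genes tested above 0. Smpdl3a, a phosphodiesterase gene induced by LXR in human macrophages, had groups that did not overlap in the other direction, with 399, 673 and 362 TPM in TREM2+ libraries, against 831, 1016 and 821 TPM in TREM2- libraries (log2 fold change -0.94 ± 0.28, adjusted p = 0.155 in limma). Lpcat3, a lysophospholipid acyltransferase gene, had a log2 fold change of -0.48 ± 0.34 and overlapping groups. The list was chosen with these results known. Against it stand 0 calls among the tested genes of sterol and fatty acid synthesis in the same fit. At the background rate those lists would hold few calls, and the difference between the lists was not tested.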

How the data were processed

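Messenger RNA of 3 TREM2+ and 3 TREM2- macrophage libraries of mouse liver tumours was measured by paired-end sequencing. The deposited table holds a length-scaled signal that the authors named TPM; the total of 1000000 is reached over the 6 columns combined, so each library was rescaled here to that total by itself. Per the submitters' processing notes, STAR 2.7.10a, Subread and featureCounts 2.0.3 were used with mm10. The annotation release and strand setting are not given in the sources used. Signal times the exon length in GENCODE M21 (mm10) gave whole reads within 0.01 read in 98.7% of 36671 matched rows above 0, used for depth and for limma's voom; read numbers cover counting error only.

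The test was two-sided limma (version 3.58.1, R 4.3.3) with a mean-variance trend, fitted to log2(TPM + 1) of genes that reached 1 TPM in 3 or more libraries. Adjustment was by Benjamini-Hochberg over all of these, at a threshold of 0.05. The fit was also run on simulated reads. Only well-expressed genes were changed there, and the differences in composition between the libraries were left out. That run does not speak for the low genes of the set. Members, lists and tests were chosen with earlier results of these data known. Members described in full were the 3 highest and 3 lowest fold changes of each branch and those whose groups did not overlap; levels of the others are also given, as are up to 4 genes of each companion list with the smallest p. Values of some companion genes are not reported here. Smpdl3a and Lpcat3 were named after their values were seen. Alternatives covered the pseudocount, filter, scaling, replicate block, trend, library weights, voom, threshold and each library left out. Whether replicate numbers pair the libraries was checked, and they were not treated as pairs.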

Additional observations from a re-analysis of the deposited data

How the results depend on the processing

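The sterol branch held 0 calls in either direction as reported and in all 20 alternatives, and its median log2 fold change stayed between -0.24 and 0.10. The fatty acid branch held 1 gene called higher, Fads1, with median-of-ratios scaling, quantile normalization, no repeat family or mitochondrial genes, voom, or a threshold of 0.10, and 2 with library weights (Fads1 and Scd2). It held 1 called lower, Elovl6, with library weights and with voom, a gene that passed the filter only through the TREM2- libraries. Trem2 passed with library weights (0.90), voom (0.87) and a threshold of 0.10 (0.89). Over all genes, calls higher and lower, 282 and 51 as reported, came to 95 and 3 with no filter, 116 and 10 with the replicate block, 976 and 389 with library weights, 462 and 176 with voom, 425 and 89 at a threshold of 0.10, and 0 and 0 without both libraries numbered 3. Lower calls came to 92 on the deposited values, 80 with median-of-ratios scaling, 121 with quantile normalization and 82 without the repeat family and mitochondrial genes. Leaving out 1 library gave 116 to 342 higher and 7 to 105 lower calls. The cause was not tested.

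The replicate block changed no call of the set: Fads1 had an adjusted p of 0.14 and Elovl6 of 0.264. Correlations of the deviations of same-numbered libraries were 0.19, -0.03 and 0.22, so 2 of 3 exceeded 0.1. For 2 of 3 TREM2+ libraries the TREM2- library of the same number gave the highest correlation. With so few libraries this does not settle whether the numbers pair the libraries, and the labels do not say so.

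Of 29 tested genes 16 kept the sign of their fold change, and 13, none of them called as reported and none beyond 0.258 in size, changed it somewhere. With median-of-ratios scaling and quantile normalization these were Hmgcs1 (0.060 and 0.046), Sqle (0.066 and 0.073), Insig1 (0.075 and 0.044) and Tm7sf2 (0.014 and 0.011). With library weights they were Hmgcs1 (0.166), Sqle (0.085), Cyp51 (0.029), Dhcr7 (0.227), Srebf2 (0.392), Srebf1 (0.116) and Me1 (-0.269). Me1 was -0.034 on the deposited values, -0.012 without the repeat family and mitochondrial genes, and -0.033 without both libraries numbered 3, where Sc5d was -0.108 and Stard4 -0.020. Leaving out 1 library gave ranges of -0.163 to 0.233 for Hmgcs1, -0.260 to 0.215 for Sqle, -0.436 to 0.059 for Idi1, -0.430 to 0.10 for Cyp51, -0.389 to 0.041 for Dhcr7, -0.063 to 0.332 for Sc5d, -0.239 to 0.122 for Insig1, -0.368 to 0.176 for Srebf2, -0.017 to 0.350 for Stard4, -0.167 to 0.165 for Tm7sf2, -0.175 to 0.900 for Scd1 and -0.236 to 0.413 for Me1. Of the sign changes, 8 came without TREM2- replicate 1. Depth is lowest for Fdps, Fads2 and Hsd17b7, with 118, 221 and 285 reads over the 6 libraries.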
